A study of Mus musculus with 9 samples.

Results

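The proteasome is the large protease that degrades ubiquitin-tagged proteins, and the messages of its subunits were followed here through mouse spermatogenesis. All genes whose symbol is exactly Psma, Psmb, Psmc or Psmd followed by a number were taken, together with Psme1, Psme2, Psme3 and Psme4. The rule found 43 genes of the 32285 in the count tables, namely 8 Psma, 11 Psmb, 6 Psmc, 14 Psmd and 4 Psme genes, and each of the 43 had UMIs in the named cells. It uses names alone, so the levels described below did not choose the members. The samples were 9 whole testes, each of 1 mouse of a C57BL/6J background, taken at postnatal day 24 and dissociated for droplet single-cell RNA sequencing, 1 library per mouse, with 4 mice in the control group, 2 with NELF-B cKO and 3 with TDP-43 cKO. The cKO mice carried the Stra8-iCre transgene, which deletes in the germ line from spermatogonia (SG) onward, with 1 floxed and 1 null allele of Nelfb, which encodes a subunit of the pausing factor NELF, or of Tardbp, which encodes the RNA-binding protein TDP-43. The control mice were littermates or mice of other litters of the colony, and the transgene is not active in somatic cells, which in the cKO mice still carry 1 null allele. For each mouse the UMIs of a cell type were added up, so a mouse is the replicate throughout, and a level is the UMIs of the gene among 1000000 UMIs of that cell type in that mouse (counts per 1000000, CPM).

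As background, the proteasome core is a stack of rings. The Psma genes encode the α ring, which gates the chamber, and the Psmb genes encode the β ring, in which Psmb6, Psmb7 and Psmb5 carry the caspase-like, trypsin-like and chymotrypsin-like activities. Cells exposed to interferon, and immune cells in general, replace these with the immune subunits Psmb9, Psmb10 and Psmb8, and thymic epithelium uses Psmb11. The Psmc genes encode the ATPases of the regulatory cap, which unfold substrates, and the Psmd genes encode its remaining subunits and some assembly factors, among them Psmd4, a ubiquitin receptor, Psmd14, the deubiquitinase that strips ubiquitin chains, and Psmd10, also called gankyrin, a chaperone of cap assembly. Psme1 and Psme2 form the interferon-inducible activator PA28αβ, Psme3 forms the nuclear activator PA28γ, and Psme4 encodes PA200, which is known for its role in histone removal in the testis. Psma8 is a germ cell paralogue of Psma7, and spermatocytes build a spermatoproteasome that contains it.

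The 9 libraries held between 119203347 and 159407373 UMIs. After a filter on barcodes of more than 1000 genes and under 10% mitochondrial UMIs, 45132 barcodes were left in 31 clusters. The 23 clusters that could be named from marker genes held 27800 cells. After removal of germ cells of the cKO mice that still had a UMI of the targeted gene, 24463 cells were used, of which 11074 came from control, 6338 from NELF-B cKO and 7051 from TDP-43 cKO mice. That removal sets Nelfb and Tardbp to 0 UMIs in the germ cells of the respective cKO by construction, so the targeted gene checks nothing here. The early spermatocytes (SC) are the preleptotene (pL), leptotene (L) and zygotene (Z) cells, followed by pachytene (P) and diplotene (D) SC and round spermatids (RS). Pairs of libraries shared between 1 and 24 of their barcodes past the filter. Before that removal 5, 116 and 93 P SC were counted in the TDP-43 cKO mice, and after it 0, 4 and 4 were left, so the genotype could not be compared at this stage. Free RNA, read from barcodes with 1 to 100 UMIs, carried germ cell messages, and its values stand beside some of the results they touch. In control libraries it held Psma7 at 81.2 to 111 CPM, Psmb10 at 10.9 to 18.5, Psme1 at 19.6 to 28.2 and Psmd10 at 19.9 to 36.9. The stage results of these 4 genes are given below without it, except for the step of Psme1 from D to RS.

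In control mice the subunits together took their largest share of UMIs in SG. They made up 0.900% ± 0.0413 of all UMIs in SG (SD, n = 4), 0.769% ± 0.0439 in pL, 0.524% ± 0.0462 in L, 0.632% ± 0.0512 in Z, 0.745% ± 0.0378 in P, 0.640% ± 0.0214 in D and 0.550% ± 0.0207 in RS. The lowest SG mouse, at 0.842%, was above the highest mouse of every other germ cell stage. By mean level, 24 members were highest in SG, 7 in P, 5 in early SC, 4 in RS and 3 in D, when the stages compared were SG, early SC, P, D and RS. The same count over all genes was not made, so these counts have no background to be read against. Those highest in SG include Psmb8, Psmb9 and Psmb11, with SG means of only 0.701, 6.47 and 1.59 CPM. Among somatic cells the share was 0.759% ± 0.0375 in Leydig cells and 0.669% ± 0.0436 in Sertoli cells. In bulk sums of this kind, a lower level of a message per cell and a larger amount of all other RNA cannot be told apart.

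The steps between stages were tested in the 4 control mice with edgeR's quasi-likelihood test, mouse as a block, and Benjamini-Hochberg adjustment over all genes, a change being called at an adjusted p under 0.05. Psmb11 was below the filter, which left 42 members. From SG to early SC, 5 members rose and 23 fell, where 23.7% of all genes rose and 27.4% fell. From early SC to P SC, 21 members rose and 8 fell, where 29.8% of all genes rose and 34.5% fell. From P to D SC, 7 members rose and 19 fell, with 28.5% and 27.3% over all genes. From D SC to RS, 6 members rose and 25 fell, with 37.0% and 34.8% over all genes. The median log2 fold changes of the members in these 4 steps were -0.42, 0.37, -0.21 and -0.60, beside -0.01, -0.19, 0.00 and 0.12 for all genes tested.

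A stricter call asked for a change of 1 or more on the log2 scale at an adjusted p under 0.01. It follows the thresholds of the study's cKO comparisons, where they were set on shrunken fold changes from DESeq2, and is used here on edgeR's fold changes and for the stages too. With it, 7, 13, 7 and 13 members were called in the 4 steps, against 25.5%, 42.3%, 32.1% and 49.9% of all genes. It called 12 in the comparison of somatic with germ cells and 3 in that of immune with other somatic cells, both described further on (48.3% and 14.1% of all genes).

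The split between rises and falls moved with the scaling of the libraries. With DESeq2 size factors the 4 steps gave 3 rises and 28 falls, 20 and 11, 16 and 13, and 14 and 13. Over all genes the shares were then 17.9% and 34.1%, 26.5% and 40.3%, 36.1% and 21.2%, and 48.7% and 21.3%. With library size alone the steps gave 3 and 27, 14 and 16, 4 and 24, and 7 and 23, beside 21.4% and 30.4%, 22.1% and 47.1%, 22.9% and 35.3%, and 41.4% and 29.7% over all genes. The scalings moved the median of all genes. The difference between the members' median and that of all genes was -0.40, 0.56, -0.21 and -0.72 in the 4 steps. With DESeq2 size factors it was -0.41, 0.56, -0.21 and -0.71. A scaling shifts all genes by about the same amount, so this difference could hardly move and is no check on the members. Members with small changes are therefore given below by their values.

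**Figure D1:**
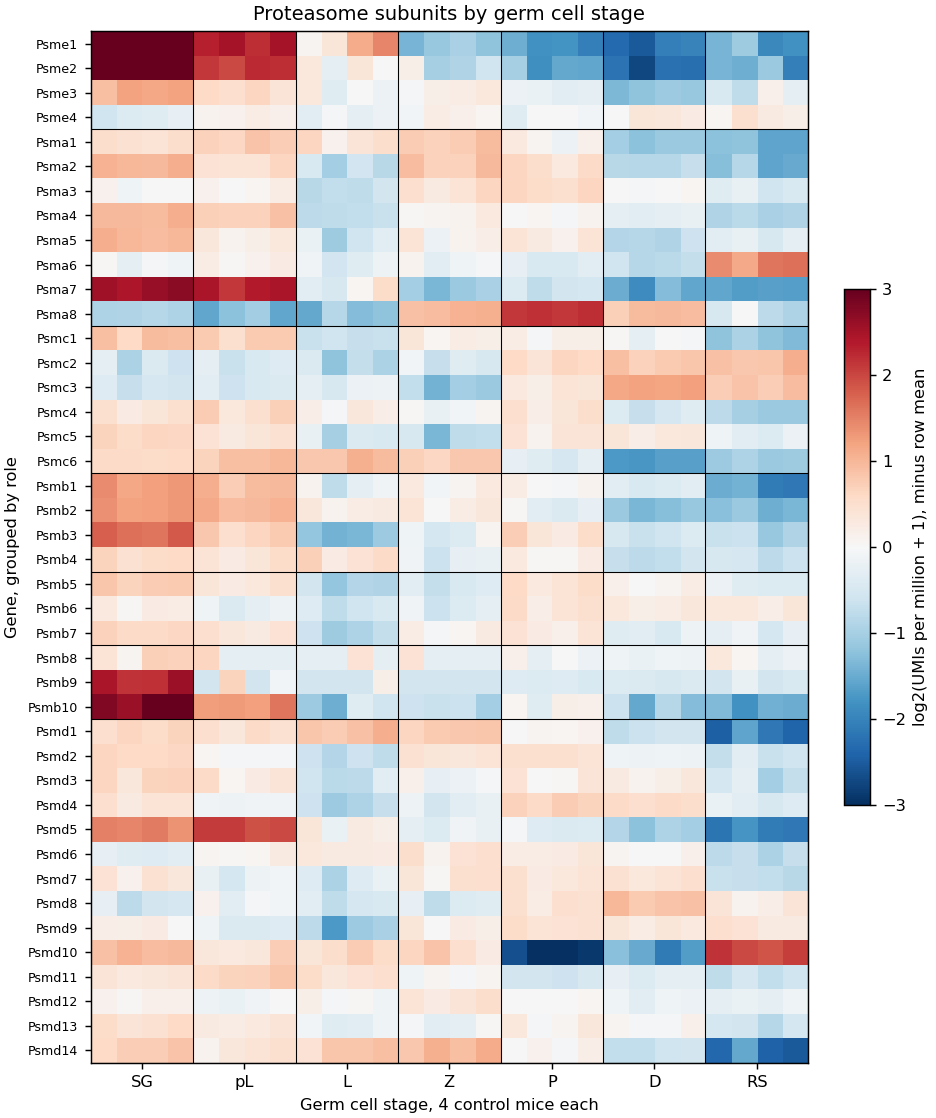
Levels of 42 proteasome subunits, as log2(CPM + 1) minus the mean of each row, in the germ cell stages of the 4 control mice. Each column is 1 mouse within a stage and each row 1 gene, grouped by role, with Psmb11 left out for its low level. Psme1, Psme2, Psmb9 and Psmb10 are above their mean in SG, Psma8 is in P, and Psmd10 is below its mean in P and above it in RS.

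The clearest exchange was at the α4 position of the ring, which Psma7 or Psma8 can fill. The level of Psma7 was 376, 347, 393 and 420 CPM in the SG of the 4 control mice and 348, 280, 334 and 348 in pL. It was 50.1, 44.7, 66.0 and 92.5 in L and 30.5, 23.9, 28.5 and 31.7 in Z. The drop lay between pL and L, where the lowest pL mouse was above the highest L mouse. Psma7 stayed low afterwards, with 47.2, 36.9, 42.9 and 43.7 in P and 20.8, 19.1, 19.7 and 19.5 in RS. It fell from SG to early SC (log2 fold change -1.25 ± 0.14 SE, adjusted p = 9.142e-11), from early SC to P (-1.40 ± 0.14, adjusted p = 1.561e-12) and from P to D (-0.77 ± 0.14, adjusted p = 5.309e-06). The early SC sum holds the pL cells with their high level. Against Z alone the level did not fall, since every P mouse was above every Z mouse.

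Psma8 ran the other way. Its level was 188, 195, 213 and 216 in Z, 450, 472, 451 and 476 in P, 170, 197, 202 and 196 in D, and 72.7, 101, 58.7 and 53.1 in RS. The P mice lay above all mice of the other stages, and Psma8 had the highest ratio of P to SG of all members, 8.51-fold on the means. It rose from SG to early SC (log2 fold change 1.11 ± 0.19 SE, adjusted p = 3.427e-06) and from early SC to P (2.50 ± 0.19, adjusted p = 9.582e-16), and fell from P to D (-1.01 ± 0.18, adjusted p = 6.267e-06) and from D to RS (-1.69 ± 0.19, adjusted p = 6.776e-11). In SG the values were 53.0, 54.4, 55.9 and 53.8, and in pL and L they lay between 34.3 and 55.7. Free RNA of the control libraries held Psma8 at 133 to 182 CPM. When each cell was thinned to 2000 UMIs, 9.81% to 10.6% of SG had a Psma8 UMI, and the ranges were 6.77% to 10.5% in pL and 8.07% to 11.1% in L. Somatic types, which should lack Psma8, gave unlike backgrounds. It was detected in 10.9% to 19.5% of Sertoli cells, but in 3.23% to 4.63% of Leydig and 2.23% to 4.78% of endothelial cells. The median depths before thinning were 14951 to 24005 UMIs in SG, 2083 to 2789 in Sertoli cells and 16119 to 20951 in Leydig cells. SG, pL and L thus lay above Leydig and endothelial cells in every control mouse and not above Sertoli cells, so a low level of Psma8 message in these stages cannot be told apart from free RNA here, and the fold changes that start from them are ratios of measured levels. In P, 59.8% to 62.4% of cells had a UMI at the same depth.

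Psma8 made up 11.4% to 13.6% of the UMIs of the Psma7 and Psma8 pair in SG and 8.98% to 13.3% in pL. The share was 32.2% to 55.5% in L, 86.0% to 89.1% in Z, 90.5% to 92.8% in P, 88.6% to 92.3% in D and 73.1% to 84.1% in RS. In Sertoli cells it was 9.81% to 15.2% and in Leydig cells 3.85% to 4.47%. From pL to L the share moved with the fall of Psma7, since the Psma8 level did not rise above that of SG. In Z, 23.6% to 30.6% of cells had a Psma8 UMI at 2000 UMIs, above the ranges of SG, pL and L and of Sertoli, Leydig and endothelial cells, while the 3.36% to 27.5% of myoid cells overlapped with it. No sequence of 31 bases near the transcript ends is shared by the pair, so reads of the paralogues were not confused at that length. Both paralogues are counted at the 3′ end, and a share of UMIs needs no correction for length.

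**Figure D2:**
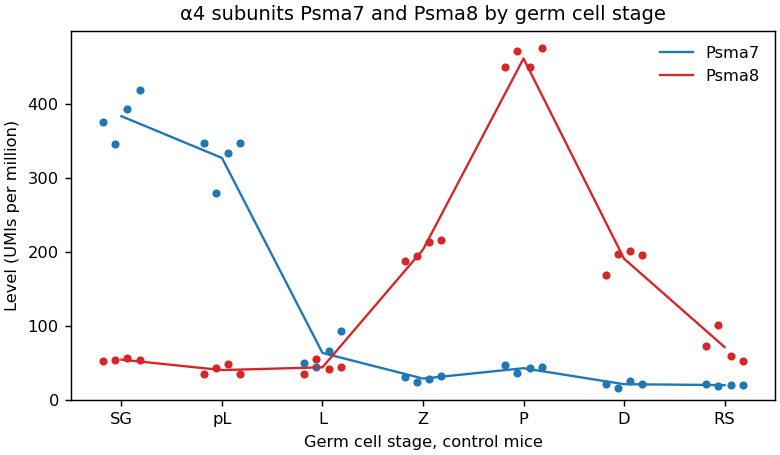
Level of Psma7 and Psma8, the paralogues for the α4 position, in CPM by germ cell stage of the 4 control mice. Points are mice and lines join stage means. Psma7 drops between pL and L, and Psma8 peaks in P at 450 to 476.

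The promoter of Psma7 is shown as a stretch upstream of the RefSeq start (GRCm38.p6, minus strand, chr2:180042465-180042614), because Psma7 is the ubiquitous subunit whose level dropped from pL to L. The gene itself lies on chromosome 2 from 180036374 to 180042433. Lower case letters throughout mean that none of the motifs searched falls in the stretch.

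Psma7: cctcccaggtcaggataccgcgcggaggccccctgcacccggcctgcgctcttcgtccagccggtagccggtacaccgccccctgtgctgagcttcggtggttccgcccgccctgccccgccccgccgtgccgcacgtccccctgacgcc

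The remaining α ring genes did not move as a block. Of 8, Psma8 and Psma1 (0.32 ± 0.14) rose from SG to early SC, 4 fell and 2 were not called, where 23.7% of all genes rose and 27.4% fell. With DESeq2 size factors 1 rose and 4 fell (17.9% and 34.1% of all genes), and with library size alone the counts were the same (21.4% and 30.4%). From P to D, 6 of 8 fell (27.3% of all genes), while 5 did with DESeq2 size factors (21.2%) and 8 with library size alone (35.3%). Psma6 stood out in RS, with 621, 509, 711 and 738 CPM against 153, 129, 132 and 142 in D, a log2 fold change of 1.98 ± 0.14 SE (adjusted p = 8.367e-18). Every RS mouse was above every mouse of the other germ cell stages, whose Psma6 values ended at 279.

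The constitutive catalytic subunits fell and then rose together. Psmb5 was at 357, 317, 341 and 343 in SG, at 136, 88.6, 107 and 105 in L and at 302, 243, 263 and 291 in P. SG and L did not overlap, and neither did L and P. Its log2 fold change was -0.83 ± 0.13 SE from SG to early SC (adjusted p = 2.885e-07) and 1.04 ± 0.13 from early SC to P (adjusted p = 5.362e-10). Psmb6, with log2 fold changes of -0.47 ± 0.13 and 1.21 ± 0.13, and Psmb7, with -0.43 ± 0.15 and 0.64 ± 0.15, took the same course. All 3 were called in both steps, except that Psmb7 lost its call in the second step with library size alone (0.20, adjusted p = 0.1116). From D to RS, Psmb6 and Psmb7 were at -0.20 ± 0.13 and -0.19 ± 0.15 and not called, and their sign turned with DESeq2 size factors. Psmb5 shares 66.9% of its 31-base sequences near the transcript end with a pseudogene, Gm3375, and its counts are uncertain to that extent.

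The structural β subunits lost level at the first step as well. All 10 Psmb genes tested fell from SG to early SC, and all 7 that are not immune subunits did so with each scaling, where 27.4% of all genes fell, or 34.1% with DESeq2 size factors and 30.4% with library size alone. The largest fall among those 7 was that of Psmb3, from 419, 378, 369 and 432 CPM in SG to 52.7, 43.8, 45.7 and 55.6 in L. Its log2 fold change from SG to early SC was -1.55 ± 0.13 SE (adjusted p = 8.37e-14), and 73.6% of its terminal sequence is shared with a pseudogene, Gm4950. Psmb1 fell from D to RS by 1.66 ± 0.13 on the log2 scale (adjusted p = 1.883e-15).

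The immune catalytic subunits fell from SG to early SC, Psmb8 and Psmb9 from levels that were already low. Psmb10 was at 68.8, 60.8, 85.8 and 80.4 CPM in SG, at 23.3, 23.7, 23.1 and 30.2 in pL and at 5.72, 5.51, 5.55 and 4.10 in Z. These 3 stages did not overlap. Its log2 fold change from SG to early SC was -2.45 ± 0.18 SE (adjusted p = 4.729e-16). Psmb9 had 203 UMIs summed over the SG of the control mice, in all 4 of them, and 5 in early SC, none of them in Z, a log2 fold change of -4.86 ± 0.43 (adjusted p = 2.578e-13). Psmb9 had the lowest ratio of P to SG of all members, 0.0155. Psmb8 was called lower in early SC, but it had 22 UMIs in SG and 4 in early SC over all 4 mice, and no fold is given. Psmb11, the thymic subunit, never passed 2.58 CPM in a control mouse, a value reached in SG.

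Set against their constitutive partners, Psmb10 was the immune subunit with the largest share in SG. It made up 17.7% to 23.4% of Psmb10 and Psmb7 UMIs in SG, 8.09% to 10.6% in pL, 1.78% to 2.90% in Z and 1.07% to 2.09% in RS. Psmb9 made up 1.51% to 2.03% of Psmb9 and Psmb6 UMIs in SG, and Psmb8 at most 0.283% of Psmb8 and Psmb5 UMIs. None of the 3 pairs shares sequence of 31 bases at the transcript ends. Psmb8 and Psmb9 are neighbours on chromosome 17, while Psmb10 lies on chromosome 8.

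**Figure D3:**
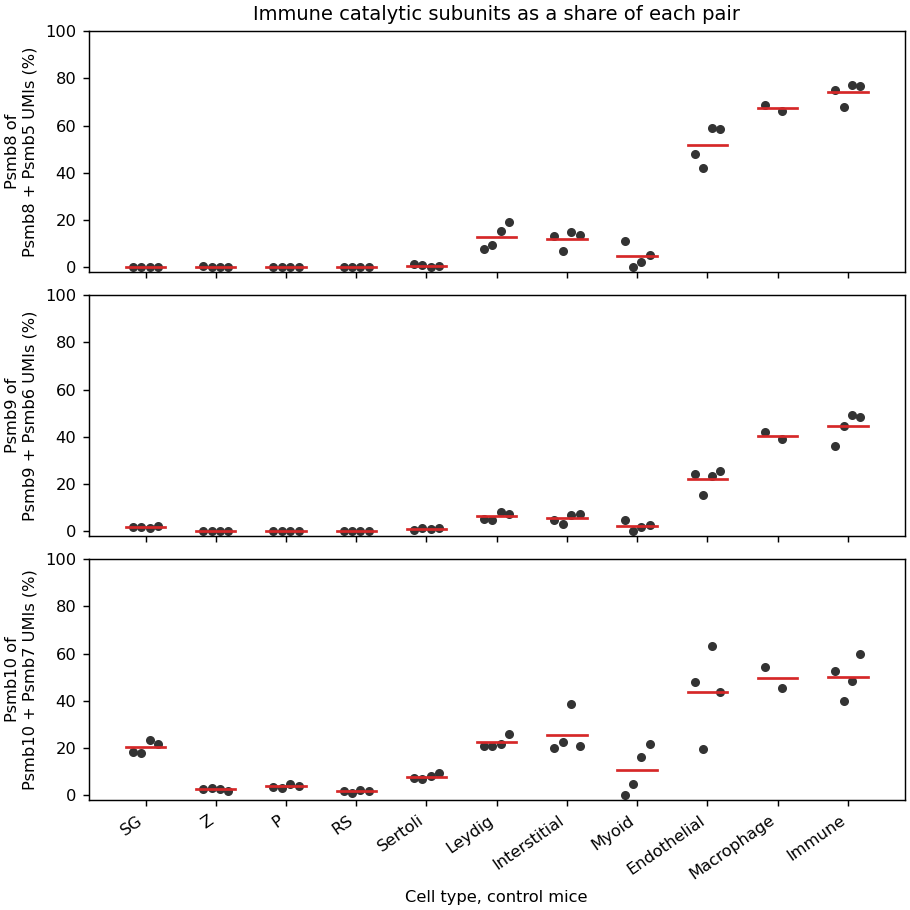
Share of Psmb8, Psmb9 and Psmb10 among the UMIs of each immune subunit and its constitutive partner, in percent, by cell type. Points are control mice, with 2 mice for macrophages and 4 for the other types, and red bars are means. Psmb8 and Psmb9 are near 0 in germ cells, Psmb10 is at 17.7% to 23.4% in SG, and in immune cells Psmb8 is at 67.7% to 77.1%.

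The genes of the activators PA28α and PA28β fell at the first step, as the immune subunits did, and went on falling to P. Psme1 was at 170, 157, 179 and 190 CPM in SG, 70.9, 79.6, 65.5 and 80.2 in pL, 14.1, 17.3, 29.8 and 38.8 in L, and 4.19, 3.05, 3.12 and 2.48 in P. SG, pL and L did not overlap. It fell from SG to early SC by 2.20 ± 0.14 on the log2 scale (adjusted p = 2.423e-17) and from early SC to P by 3.08 ± 0.17 (adjusted p = 3.099e-21). Psme2 was at 150, 144, 169 and 161 in SG and at 5.13, 2.37, 3.17 and 3.16 in P, with log2 fold changes of -2.52 ± 0.14 and -2.52 ± 0.16 in the same steps. The P to SG ratio was 0.0184 for Psme1 and 0.0222 for Psme2, the lowest after Psmb9. Both rose from D to RS, by 0.66 ± 0.20 and 1.03 ± 0.22, between levels that stayed under 6 CPM. Free RNA of the control libraries was above these levels, at 19.6 to 28.2 CPM for Psme1 and 12.5 to 19.9 for Psme2. Median depths per cell were 57965.5 to 96846.5 UMIs in D and 2692 to 21110.5 in RS. The part of free RNA in this rise was not tested. The copy Psme2b shares 75.6% of the terminal sequence of Psme2, and 23.5% of that of Psme1 is shared with Gm7776.

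Psme3 fell at the first step too, and Psme4 did not. Psme3, PA28γ, was at 76.4, 94.0, 91.6 and 93.3 in SG and at 35.5, 34.7, 31.6 and 33.2 in P, and rose from D to RS by 0.69 ± 0.16 on the log2 scale. Psme4, PA200, had its lowest stage mean in SG, with 116, 132, 137 and 148, and rose from SG to early SC (0.56 ± 0.14 SE, adjusted p = 0.0005677) and from P to D (0.61 ± 0.13, adjusted p = 0.0001189). In RS it was at 185, 245, 213 and 198, and its value of -0.23 ± 0.13 from D to RS turned sign with DESeq2 size factors. Thus 3 of the 4 activator genes fell at the first step and Psme4 rose, with each scaling, where 27.4% of all genes fell and 23.7% rose, or 34.1% and 17.9% with DESeq2 size factors and 30.4% and 21.4% with library size alone.

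Psme1 and Psme2 lie near each other on chromosome 14, Psme1 from 55578123 to 55581529 on the plus strand and Psme2 from 55587441 to 55591113 on the minus strand. The stretch upstream of Psme2 (GRCm38.p6, minus strand, chr14:55591114-55591263) is shown because the pair fell together. None of the motifs searched falls in it.

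Psme2: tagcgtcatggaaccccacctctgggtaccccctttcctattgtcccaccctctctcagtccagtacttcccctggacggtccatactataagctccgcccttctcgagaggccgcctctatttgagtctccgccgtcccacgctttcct

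From early SC to P, 4 of the 6 ATPase genes rose, Psmc6 fell and Psmc1 was not called, where 29.8% of all genes rose and 34.5% fell. With library size alone 3 rose and 1 fell, beside 22.1% and 47.1% of all genes. Psmc2 was at 185, 129, 157 and 152 CPM in early SC and at 334, 285, 345 and 334 in P, a log2 fold change of 1.51 ± 0.14 SE (adjusted p = 2.648e-13). Psmc3 was at 330, 243, 301 and 283 in early SC, at 555, 512, 602 and 577 in P and at 1016, 1035, 1020 and 1067 in D. Each of these steps separated all mice, with log2 fold changes of 1.41 ± 0.16 (adjusted p = 2.055e-10) and 1.15 ± 0.16 (adjusted p = 4.393e-08). Psmc6 moved against them. It was at 202, 209, 232 and 229 in early SC, 103, 96.1, 87.1 and 102 in P, and 36.4, 36.2, 39.4 and 38.9 in D. Its log2 fold changes were -0.73 ± 0.14 (adjusted p = 6.807e-06) and -1.10 ± 0.14 (adjusted p = 2.552e-09).

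Among the 14 cap and assembly genes, 8 rose and 3 fell from early SC to P, where 29.8% of all genes rose and 34.5% fell, but with library size alone 5 rose and 5 fell (22.1% and 47.1% of all genes). From D to RS, 11 fell and 1 rose, where 34.8% of all genes fell and 37.0% rose, and DESeq2 size factors gave 9 falls and 3 rises (21.3% and 48.7%). Psmd4, the ubiquitin receptor, was at 196, 163, 178 and 189 in early SC and at 361, 335, 384 and 358 in P, a log2 fold change of 1.43 ± 0.13 SE (adjusted p = 1.084e-13). Psmd8 rose at the same step by 1.17 ± 0.14 and again from P to D by 0.72 ± 0.13. Psmd14, the deubiquitinase, was at 59.8, 60.0, 66.8 and 68.7 in D and between 16.9 and 34.4 in RS, a fall of 1.80 ± 0.14 (adjusted p = 1.167e-15). Psmd1, a scaffold of the cap, fell at this step by 1.75 ± 0.14 (adjusted p = 3.483e-15). In both genes the highest RS mouse was control 2, and the stages did not overlap.

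Psmd10 had a course of its own. It was at 32.0, 35.7, 32.9 and 34.2 CPM in SG and at 26.7, 31.2, 24.3 and 20.3 in Z. It was at 1.86, 1.24, 1.23 and 1.42 in P, at 6.47, 5.24, 3.12 and 4.58 in D, and at 79.1, 69.9, 64.5 and 74.7 in RS. The message was thus nearly lost at P and highest in RS, with no overlap between Z, P, D and RS. The log2 fold changes were -3.67 ± 0.21 SE from early SC to P (adjusted p = 3.631e-20), 2.02 ± 0.22 from P to D (adjusted p = 5.904e-11) and 3.67 ± 0.18 from D to RS (adjusted p = 4.768e-23). Psmd10 is the member on the X chromosome, from 140948429 to 140956728, and all other members are on autosomes. As background, the sex chromosomes are transcriptionally silent in P SC. In the same test 569 of 747 X-linked genes (76.2%) fell from early SC to P, against 32.9% of autosomal genes, and the X-linked median was -2.80, with 34.3% of X-linked genes below the value of Psmd10. From D to RS, 75.6% of X-linked and 35.4% of autosomal genes rose. These X-linked counts were looked up after the values of Psmd10 had been seen.

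**Figure D4:**
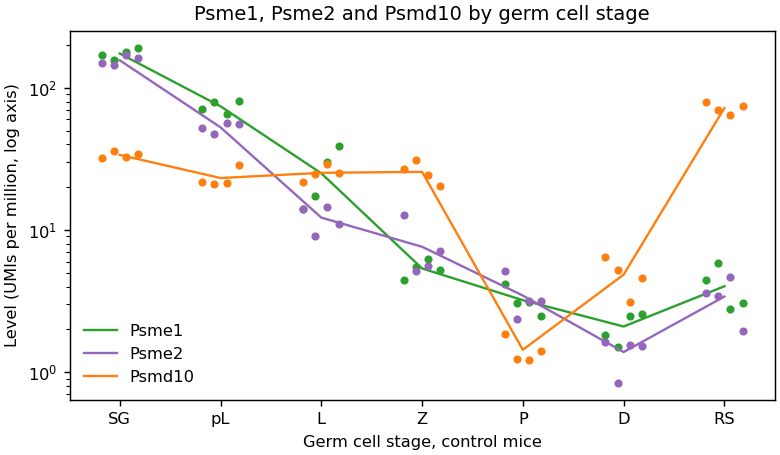
Level of Psme1, Psme2 and Psmd10 in CPM, on a log axis, by germ cell stage of the 4 control mice. Points are mice and lines join stage means. Psme1 and Psme2 fall from SG to P and stay under 6 afterwards, while Psmd10 is between 1.23 and 1.86 in P and between 64.5 and 79.1 in RS.

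The stretch upstream of Psmd10 (GRCm38.p6, minus strand, chrX:140956729-140956878) is shown as that of the X-linked member, and the stretch upstream of Psmb5 (GRCm38.p6, minus strand, chr14:54618023-54618172) as that of a catalytic subunit that fell and rose again. Capitals mark matches to a motif on either strand, which are the CCAAT box, read here as its reverse ATTGG, in Psmd10, and the antioxidant response element TGACNNNGC in Psmb5, the kind of element that Nfe2l1 and Nfe2l2 bind.

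Psmd10: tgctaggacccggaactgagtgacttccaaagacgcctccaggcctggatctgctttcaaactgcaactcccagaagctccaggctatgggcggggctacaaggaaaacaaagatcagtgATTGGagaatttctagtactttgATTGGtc

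Psmb5: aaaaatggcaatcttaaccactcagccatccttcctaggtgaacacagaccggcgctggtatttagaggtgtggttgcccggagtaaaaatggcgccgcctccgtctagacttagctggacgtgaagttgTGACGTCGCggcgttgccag

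RefSeq windows of 250 bases before to 50 bases after the start were at hand for 36 members, matched by symbol. The antioxidant response element was in 6 of the 36 windows (16.7%), those of Psmb5, Psmb6, Psmc6, Psmd9, Psmd12 and Psme4, and in 12.5% of all 27025 windows. The CCAAT box was in 14 (38.9%) and in 37.9% of all. The core of the interferon response element, GAAA and again GAAA after any 2 bases, was in 4 (11.1%), those of Psmb3, Psmd4, Psmd9 and Psme1, and in 3.49% of all, the STAT element TTCNNNGAA in 2 (5.56%) and in 8.47% of all, and the E2F site TTTGGCGC in 1 and in 0.536% of all. The cyclic AMP element TGACGTCA was in no member window and in 1.88% of all. Both strands were searched, no motif contains another, and the antioxidant and cyclic AMP elements share their opening TGAC.

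Pooled over types, somatic cells held more of the inducible subunits and less of the constitutive catalytic ones than germ cells. The germ mean includes P, D and RS, where Psme1 and Psme2 were far below SG. In Sertoli cells Psmb9, Psmb10, Psme1 and Psme2 were lower than in every SG mouse, with Psmb10 at 12.4 to 17.5 CPM against 60.8 to 85.8 and Psme1 at 36.7 to 42.4 against 157 to 190. Summed over control mice, SG had 5578 Psme1 and 5031 Psme2 UMIs of 32248312. Both shares were lower too in interstitial cells (316 and 200 of 2079837), myoid cells (74 and 58 of 764036) and macrophages (88 and 59 of 747862). In the comparison of all somatic with all germ cell types in control mice, 8 members were higher and 28 lower, where 20.4% of all genes were higher and 50.4% lower. The median log2 fold change of the members was -0.55, beside -0.77 for all genes. DESeq2 size factors gave 16 higher and 23 lower (25.2% and 40.6% of all genes), and library size alone 16 and 22 (25.6% and 39.7%). All 3 immune catalytic subunits, Psme1, Psme2 and Psma7 were higher, and all 3 constitutive catalytic subunits were lower, with each scaling. Psme1 was higher by 3.48 ± 0.08 on the log2 scale (adjusted p = 2.954e-36) and Psma7 by 2.02 ± 0.07 (adjusted p = 1.403e-30), and Psma8 was lower by 2.18 ± 0.12 (adjusted p = 5.552e-22). All 6 ATPases were lower, but with DESeq2 size factors or library size alone 4 were lower and 1 higher.

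Leydig cells were the somatic type with the most Psme1, at 349, 350, 339 and 339 CPM, followed by immune cells at 296, 304, 312 and 327 and endothelial cells at 228 to 290, and Sertoli cells held the least, at 36.7 to 42.4. The Leydig and immune ranges did not overlap. In Sertoli cells, the germ cell companion, Psma7 was at 489, 460, 583 and 625, above every SG mouse. The share of Psmb8 differed between these types. Psmb8 made up 67.7% to 77.1% of Psmb8 and Psmb5 UMIs in immune cells, 66.1% and 68.9% in the macrophages of the 2 control mice with enough of them, 42.1% to 58.8% in endothelial cells and 7.66% to 19.1% in Leydig cells. Immune cells and endothelial cells did not overlap, while immune cells and macrophages did. The share of Psmb10 did not separate the types in this way, since it was 19.5% to 63.3% in endothelial cells and 40.0% to 59.7% in immune cells.

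Immune cells and macrophages were then compared with the other somatic types in control mice. Here 4 members were higher and 3 lower, where 12.1% of all genes were higher and 11.8% lower, and library size alone gave 4 higher and 12 lower (11.2% and 13.8%). The 4 were Psmb8 (log2 fold change 4.38 ± 0.19 SE, adjusted p = 4.78e-25), Psmb9 (3.80 ± 0.21, adjusted p = 1.518e-20), Psmb10 (1.88 ± 0.18, adjusted p = 7.079e-12) and Psme1 (0.86 ± 0.13, adjusted p = 4.584e-07). For Psme1, immune cells and macrophages differed, with 515 of 1664156 and 88 of 747862 UMIs over the control mice. The macrophage share was below those of Leydig (2869 of 8309866), endothelial (291 of 1099906) and interstitial cells (316 of 2079837). It was above those of myoid (74 of 764036) and Sertoli cells (455 of 11528408). Psmb8 was at 416, 296, 439 and 477 CPM in immune cells and at 3.46, 1.84, 0.00 and 1.00 in Sertoli cells. The 3 lower members were Psmd7 (-0.76), Psmd12 (-0.44) and Psmb5 (-0.33 ± 0.12, adjusted p = 0.03972). Psme2 was at 0.29 ± 0.14 and was not called.

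Other genes of the pathway were followed on a list of 30 assembly chaperones, inhibitors, ubiquitin genes, shuttle factors and transcription regulators, of which 28 were found. Of the 28, 6 rose and 5 fell from SG to early SC, 11 rose and 10 fell from early SC to P, 5 rose and 13 fell from P to D, and 9 rose and 18 fell from D to RS. The shares of all genes that rose and fell in these steps are those given for the subunits, 23.7% and 27.4%, 29.8% and 34.5%, 28.5% and 27.3%, and 37.0% and 34.8%. The split moved with the scaling here too, to 5 and 12, 8 and 12, 8 and 10, and 10 and 11 with DESeq2 size factors and to 5 and 10, 6 and 16, 4 and 18, and 9 and 14 with library size alone. The assembly chaperone Psmg2 rose at P by 1.14 ± 0.13 and the inhibitor Psmf1 by 0.91 ± 0.17 on the log2 scale. The polyubiquitin gene Ubb rose by 1.84 ± 0.14 (adjusted p = 1.254e-16). Nfe2l2 (NRF2) fell by 3.58 ± 0.25 (adjusted p = 2.333e-17) and Nfe2l1 (NRF1), the regulator of proteasome genes under proteasome inhibition, by 1.11 ± 0.16, at the step where 21 members rose. Ubqln2, a shuttle factor gene on the X chromosome, fell by 3.05 ± 0.25. From D to RS the assembly factor Pomp fell by 2.17 ± 0.15 (adjusted p = 5.464e-18) and the ubiquitin and ribosomal protein gene Rps27a by 2.08 ± 0.13.

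The 2 cKO genotypes were compared with the same 4 control mice, so the comparisons share their controls, in SG and early SC, the stages that all mice had, and in Sertoli cells. In SG and early SC together none of 43 members was called in NELF-B cKO mice, where 0.00514% of all genes was, and DESeq2 called 1, Psma8 (3.45% of all genes). At an unadjusted p under 0.05 there were 3 members (14.3% of all genes). In TDP-43 cKO mice none of 43 was called by edgeR either (0.00514% of all genes), with a lowest adjusted p of 0.0861 and 25 members at an unadjusted p under 0.05 (24.4% of all genes). DESeq2 called 11 higher and 2 lower, where it called 3.63% and 9.10% of all genes, and edgeR at clustering resolution 1.2 called 11 higher and 4 lower (6.93% and 16.1% of all genes). At resolution 1.2 the early SC are not the same cells. A cluster of 560 cells named Z there has Gml, Gml2 and Gm49794 among its leading genes, as the P cluster has at resolution 0.8. In 22 of the 43 members all TDP-43 cKO mice were above the control range, against 8.90% of all genes, and in 2 they were below it, against 18.3%. The median log2 fold change of the members was 0.24, beside 0.01 for all genes. SG, where the members took a larger share of UMIs than in early SC, gave more of these sums in every TDP-43 cKO mouse than in any control mouse. The lowest TDP-43 cKO mouse had 10431908 of 15951391 UMIs from SG, and the highest control mouse 10608996 of 16661323. Taken apart, 15 members lay above the control range in SG and 4 in early SC. The part of this mix in the pooled values was not tested. In NELF-B cKO mice 4 members were above and 4 below the control range (11.3% and 9.62% of all genes).

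In SG alone, none of 43 members was called in either genotype by edgeR (0.00552% of all genes in each), and at an unadjusted p under 0.05 there were 6 in NELF-B cKO and 16 in TDP-43 cKO mice (12.6% and 19.0% of all genes). DESeq2 called 9 members higher and 1 lower in TDP-43 cKO mice (2.55% and 5.90% of all genes) and 1 in NELF-B cKO mice (1.71% of all genes). In TDP-43 cKO mice 15 members lay above the control range in all 3 mice and 3 below it, against 5.89% and 15.5% of all genes. In NELF-B cKO mice the counts were 2 and 7, against 9.58% and 9.24%. The subunits together made up 1.01%, 0.977% and 0.948% of UMIs in the SG of the 3 TDP-43 cKO mice, all above the control range of 0.842% to 0.936%, while the NELF-B cKO values were 0.781% and 0.907%. In free RNA the subunits made up 0.681% to 0.739% of UMIs in TDP-43 cKO, 0.693% to 0.723% in NELF-B cKO and 0.614% to 0.699% in control libraries. There 21 of the 43 lay above the control range in all TDP-43 cKO libraries and 7 below it. In NELF-B cKO libraries 11 lay above it and 1 below. The share over all genes was not counted in free RNA, so these counts have no background to be read against. In cells, the sum of the subunits was 0.670%, 0.711% and 0.698% in TDP-43 cKO early SC, inside the control range of 0.598% to 0.712%. It was 0.615% to 0.634% in TDP-43 cKO interstitial cells, above the control range of 0.500% to 0.577% in all 3 mice. An SG cluster with a median of 2300 UMIs per cell held 17.1% of SG in TDP-43 cKO, 7.36% in NELF-B cKO and 7.35% in control mice. These shares are of the cells kept. The removal, not applied to control mice, took the TDP-43 cKO SG from 791, 1005 and 1125 cells to 339, 509 and 533. The cluster had 448 cells before it, and 236 TDP-43 cKO, 84 NELF-B cKO and 110 control cells after it. The removal thus took few of its cells and raised its share in TDP-43 cKO mice. The part of free RNA, of the removal and of this cluster in the SG values was not tested. Psma8 was at 40.6, 38.0 and 41.9 CPM in TDP-43 cKO SG and at 43.4 and 36.9 in NELF-B cKO SG, all below the control values of 53.0 to 55.9. Free RNA of Psma8 was lower too in TDP-43 cKO libraries, at 22.9 to 110, and was 54.2 to 162 in NELF-B cKO libraries.

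In early SC, 40 members passed the filter. None was called in NELF-B cKO mice (0.0130% of all genes by edgeR), with 3 at an unadjusted p under 0.05 (16.5% of all genes) and none called by DESeq2 (4.54% of all genes). In TDP-43 cKO mice Psmd10 was called, and it was higher, where 1.15% of all genes were higher and 0.812% lower. Psmd10 was at 23.4, 26.3, 24.2 and 23.7 CPM in control early SC, at 37.8, 45.1 and 55.3 in TDP-43 cKO and at 18.7 and 26.1 in NELF-B cKO mice. The log2 fold change in TDP-43 cKO was 1.01 ± 0.16 SE (adjusted p = 0.02304). All TDP-43 cKO mice were above all control mice, but the call was lost without control 1, 3 or 4 or TDP-43 cKO 2 or 3 and with the replicate number as a block (1.00, adjusted p = 0.1225). DESeq2 called 5 members, all higher (4.63% of all genes, and 8.36% were lower). In 4 members all TDP-43 cKO mice were above the control range and in 3 below it (7.65% and 19.5% of all genes), and in NELF-B cKO mice the counts were 3 and 5 (14.8% and 11.9%). The stricter call gave no member in either genotype (0.00649% of all genes in NELF-B cKO and 0.0390% in TDP-43 cKO).

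The mix of pL, L and Z cells in early SC differed between mice, so the stages were also fitted apart, a choice made after the data had been seen. Z cells made up 35.0% to 55.4% of early SC in control mice, 18.7% and 36.9% in NELF-B cKO mice and 14.1%, 41.3% and 41.5% in TDP-43 cKO mice. In Z cells alone, Psmd10 was at 56.1, 65.5 and 88.0 CPM in TDP-43 cKO mice against 20.3 to 31.2 in control mice, a log2 fold change of 1.54 ± 0.21 SE (adjusted p = 0.001471). Leaving out any of the 9 mice kept the call, with log2 fold changes of 1.31 to 1.65. In NELF-B cKO Z cells Psmd10 was at 24.2 and 38.6, which overlapped with the control mice (0.25 ± 0.25, adjusted p = 0.63). In TDP-43 cKO L cells it was at 35.4, 41.4 and 34.6 against 21.9 to 29.2, with no overlap and no call (0.60 ± 0.20, adjusted p = 0.1174), and in pL cells the groups overlapped. By edgeR no member was called in pL or L cells alone. In pL cells 0.261% of all genes were higher and 0.245% lower in NELF-B cKO, and 0.0632% and 0.0158% in TDP-43 cKO mice. In L cells the shares were 1.53% and 0.933% in NELF-B cKO, and 0.00% and 0.0181% in TDP-43 cKO mice. At an unadjusted p under 0.05 there were 5 members in pL cells of NELF-B cKO and 9 in those of TDP-43 cKO mice (16.2% and 23.2% of all genes), and 7 and 6 in L cells (18.1% and 20.8%). DESeq2 called 1 member lower in NELF-B cKO pL cells (1.37% of all genes, and 1.28% were higher) and 2 higher in TDP-43 cKO pL cells (2.73%, and 4.92% were lower). In L cells it called 1 higher and 1 lower in NELF-B cKO mice (2.57% and 1.99%) and none in TDP-43 cKO mice (1.24% and 6.03%).

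The X chromosome as a whole moved with this value. In TDP-43 cKO Z cells 203 of 460 X-linked genes (44.1%) were called higher and 0.652% lower, against 3.08% and 5.92% of autosomal genes, and the X-linked median was 0.75. Of the X-linked genes, 17.2% stood above Psmd10, and of the autosomal genes 1.76%. In NELF-B cKO Z cells 46 X-linked genes (10.0%) were called higher. In TDP-43 cKO SG none of 637 X-linked genes was called, and in pL cells 1 of 446. The relation of Psmd10 to the remaining X-linked genes was not tested.

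**Figure D5:**
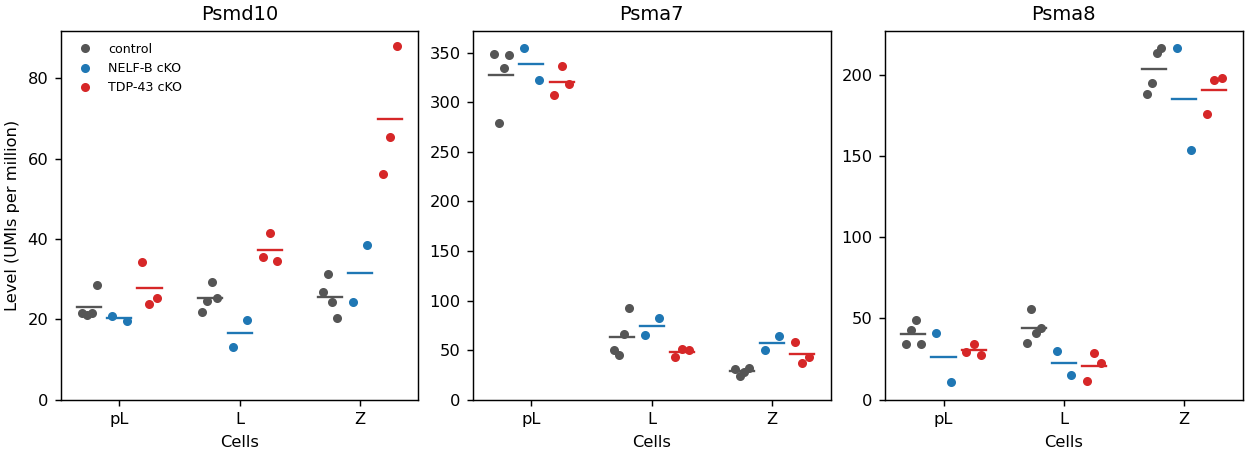
Level of Psmd10, Psma7 and Psma8 in CPM in pL, L and Z cells of 4 control, 2 NELF-B cKO and 3 TDP-43 cKO mice. Points are mice and bars are means. Psmd10 is at 56.1 to 88.0 in the Z cells of TDP-43 cKO mice and at 20.3 to 31.2 in those of control mice, and Psma7 in Z is higher in both cKO genotypes.

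In the same fit of Z cells, edgeR called 5 members of 40 higher in TDP-43 cKO mice and none lower, where 4.73% of all genes were higher and 5.71% lower. DESeq2 called 8 higher and 1 lower (5.36% and 6.81% of all genes). Beside Psmd10 they were Psmb3, Psma7, Psma4 and Psmd1, named here after their values were seen. Psmb3 was at 153, 187 and 184 CPM against 109, 83.4, 90.6 and 126 in control mice (0.83 ± 0.17 SE, adjusted p = 0.01507). Psma4 was at 281, 344 and 348 against 200, 206, 208 and 239 (0.65 ± 0.13, adjusted p = 0.01388). Both lost the call without TDP-43 cKO 2 or 3, and both share terminal sequence with pseudogenes. Psma7 was at 58.0, 36.8 and 43.4 in TDP-43 cKO and at 49.9 and 64.0 in NELF-B cKO Z cells, all above the control values of 23.9 to 31.7. It was called in both genotypes (0.66 ± 0.18, adjusted p = 0.04135, and 0.92 ± 0.19, adjusted p = 0.03857), and in NELF-B cKO Z cells it was the 1 member called, where 1.18% of all genes were higher and 0.68% lower, and DESeq2 called 1 member higher too (1.95% and 1.71%). Each of these calls, and that of Psmd1, was lost when any 1 of the 4 control mice, TDP-43 cKO 2 or TDP-43 cKO 3 was left out. The Psma7 call in TDP-43 cKO was also lost without TDP-43 cKO 1. With 1 NELF-B cKO mouse left, the Psma7 log2 fold change in that genotype was 0.71 without NELF-B cKO 2 and 1.08 without NELF-B cKO 1. Free RNA held Psma7 at 81.2 to 111 CPM in control, 124 to 463 in NELF-B cKO and 277 to 458 in TDP-43 cKO libraries. In TDP-43 cKO and control libraries it held Psmb3 at 205 to 373 and 135 to 160, Psma4 at 266 to 286 and 158 to 175, and Psmd1 at 99.3 to 167 and 47.1 to 79.4. It thus moved the same way as these 4 calls, and its part in them was not tested. For Psmd10 the libraries overlapped, at 26.3 to 35.9 and 19.9 to 36.9.

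The Psma8 level in Z cells overlapped with the control mice in both genotypes. It was at 216 and 153 in NELF-B cKO and at 176, 197 and 198 in TDP-43 cKO Z cells, against 188 to 216 in control mice. In P cells of NELF-B cKO mice it was at 418 and 553, around the control values of 450 to 476. The share of Psma8 among Psma7 and Psma8 UMIs over all early SC was 42.1% ± 8.0 in control (SD, n = 4), 25.9% ± 1.3 in NELF-B cKO (n = 2) and 35.4% ± 12.8 in TDP-43 cKO mice (n = 3). By the exact permutation test, two-sided, NELF-B cKO was lower by 16.2 points (p = 0.1333, the smallest p this design can give), and the TDP-43 cKO difference of -6.74 points had p = 0.4571, where the smallest possible is 0.05714. At clustering resolution 1.2 early SC include a cluster with leading genes of the P cluster at 0.8, and the control mean was 69%. There the NELF-B cKO difference was -26.3 points. The TDP-43 cKO difference was not stable, since it was 0.917 points with no cell removed, 0.549 without TDP-43 cKO 1 and -33.4 (p = 0.05714, exact permutation test) at that resolution. Within Z the share was 86.0% to 89.1% in control, 81.2% and 70.6% in NELF-B cKO, and 75.2%, 84.3% and 82.1% in TDP-43 cKO mice. The shares of Z cells among early SC, given above, differed alongside, as did free RNA, in which Psma7 was higher in both cKO groups and Psma8 lower in TDP-43 cKO libraries. Their part in the share was not tested.

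In Sertoli cells, where the floxed allele stays intact and the null allele is carried, 42 members were tested. None was called in NELF-B cKO mice by edgeR (0.00% of all genes), 1 had an unadjusted p under 0.05 (12.9% of all genes), and DESeq2 called that gene, Psme1 (0.643% of all genes). In TDP-43 cKO mice Psme1 was higher and Psmc3 lower, where 3.25% of all genes were higher and 4.26% lower. Psme1 was at 42.4, 39.2, 36.7 and 40.3 CPM in control, 61.8 and 88.3 in NELF-B cKO and 76.2, 62.9 and 69.9 in TDP-43 cKO Sertoli cells. Both cKO groups lay wholly above the control mice, with log2 fold changes of 0.94 ± 0.16 SE (adjusted p = 0.273) and 0.82 ± 0.15 (adjusted p = 0.04395). Psmc3 was at 437, 302, 311 and 245 in control and at 101, 150 and 141 in TDP-43 cKO Sertoli cells (-1.30 ± 0.32, adjusted p = 0.04857). DESeq2 called 3 members higher and 5 lower (7.85% and 15.3% of all genes). In 5 members all TDP-43 cKO mice were above the control range and in 10 below it (16.1% and 20.7% of all genes), and in NELF-B cKO mice the counts were 5 and 5 (10.4% and 9.28%). Both calls were lost when any 1 control or TDP-43 cKO mouse was left out, with the replicate block and at the finer clustering.

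Free RNA and markers of other cells moved with these 2 genes. Free RNA held Psme1 at 19.6 to 28.2 CPM in control, 44.4 to 160 in NELF-B cKO and 81.3 to 221 in TDP-43 cKO libraries, and Psmc3 at 665 to 921 in control and 206 to 322 in TDP-43 cKO libraries. The summed Leydig markers in Sertoli cells were 19.5 to 68.4 in control, 128 to 459 in NELF-B cKO and 56.8 to 163 in TDP-43 cKO mice. The summed D markers there were 187 to 411 in control and 31.4 to 72.8 in TDP-43 cKO mice, and the RS markers 92.2 to 392 and 17.3 to 30.2. Different clusters held most Sertoli cells. In TDP-43 cKO mice 58.8% were in a cluster with a median of 35430 UMIs per cell. Another cluster, with a median of 2100 UMIs, held 63.2% of them in control and 64.7% in NELF-B cKO but 35.2% in TDP-43 cKO mice. Within that cluster alone, a choice made after the data had been seen, Psme1 was higher in TDP-43 cKO mice (1.28 ± 0.29, adjusted p = 0.01295) and Psmc3 (-1.39 ± 0.29, adjusted p = 0.01086) and Psme4 (-1.16 ± 0.25, adjusted p = 0.01086) lower, where 3.60% of all genes were higher and 15.5% lower. DESeq2 called 1 member higher and 3 lower there (2.00% and 16.1% of all genes). In NELF-B cKO mice neither tool called a member there (0.00% of all genes), and 1 was at an unadjusted p under 0.05 (12.6%). The part of free RNA in these values was not tested.

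Of the 28 pathway genes, none was called in SG of either genotype (0.00552% of all genes in each) or in NELF-B cKO Sertoli cells (0.00% of all genes). In early SC of TDP-43 cKO mice 1 was higher, Zfand5, a proteasome-binding factor (0.46 ± 0.09 SE, adjusted p = 0.04464), where 1.15% of all genes were higher and 0.812% lower. In TDP-43 cKO Sertoli cells Rps27a was higher (0.45 ± 0.11, adjusted p = 0.04854) and the inhibitor Psmf1 lower (-0.73 ± 0.18, adjusted p = 0.04962), where 3.25% of all genes were higher and 4.26% lower.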

How the data were processed

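Testes of 9 mice were made into 10x 3′ libraries. The authors mapped and counted the reads with Cell Ranger on mm10 and deposited raw UMI counts per gene and barcode with no cells removed. The submitters' processing notes name Cell Ranger 6.1.1 and 7.0.0, Seurat 4.2.0 and DESeq2 1.36, while the file headers name Cell Ranger 4. Libraries held 119203347 to 159407373 UMIs.

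Barcodes with more than 1000 genes and under 10% mitochondrial UMIs were clustered at resolution 0.8 (scanpy 1.11.5, leidenalg 0.10.2) and clusters named from marker lists. Doublets were not called. Cluster limits (a median of 2000 UMIs, at most 80% of cells from 1 mouse) were chosen with the clusters in view, and clusters of RS and D with few UMIs were left out. Named cells were 32.2% to 63.8% of those past the filter in control and 65.3% to 99.3% in cKO libraries. As in the study's methods, cKO germ cells that held any UMI of the deleted gene were left out. Sums per mouse and cell type of at least 10 cells were fitted with edgeR 4.0.16 (TMM, filterByExpr, quasi-likelihood test, R 4.3.3), called at a Benjamini-Hochberg adjusted p under 0.05. Stage fits used the 4 control mice with mouse as a block, since each mouse gave every stage. Macrophage sums exist for 2 control mice. Genotype fits used all 9 mice. CPM levels were computed without TMM factors and are not scaled by length. Replicates are separate mice.

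The members and lists were chosen with earlier results of these data known. Genes were named by rule: Psma7, Psma8, Psmb5 to Psmb11 and Psme1 to Psme4 where tested, the called members with the 4 largest changes in each direction, and those with the highest and lowest ratio of P to SG. Further members named as examples were picked after their values had been seen. Sequence shared with other genes was counted as 31-base words in the last 500 bases of GENCODE transcripts, and promoters came from RefSeq (GRCm38.p6). Alternatives were DESeq2 1.42.0, its size factors, library size alone, no filter, the stricter call, resolution 1.2, 30 cells per sum, the replicate block, other rules of cell removal and leaving out each mouse.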

Additional observations from a re-analysis of the deposited data

Results flagged for a closer look

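In 160 groups of 4 control mice, 9 had a mouse whose gap to the nearest other mouse was larger than Dixon's 95% critical value allows, and chance alone gives about 1 in 20 groups. In SG, Psme3 was lowest in control 1, at 76.4 CPM. In D, Psme2 was lowest in control 2, at 0.840. In endothelial cells Psme2 was also lowest in control 2, at 132.9. In Sertoli cells Psmb7 was highest in control 1, at 216.5. In myoid cells Psme4 was highest in control 2, at 336.4, and all subunits together were highest in control 1, at 6267 CPM. The share of Psmb8 in Psmb8 and Psmb5 was lowest in the interstitial cells of control 2, at 6.83%. The share of Psmb10 in Psmb10 and Psmb7 was highest in the Leydig cells of control 4, at 26.1%, and in the interstitial cells of control 3, at 38.6%.

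In 5 cases all mice of one cKO genotype lay above the control range and all mice of the other below it, and the difference was not tested. How often this happens over all genes was not counted, so the number of cases has no background to be read against. The mean of TDP-43 cKO minus that of NELF-B cKO mice was 44.6 CPM for Psmd11 in SG and early SC together and 51.1 in SG alone. In SG it was 41.3 for Psmc6 and 35.4 for Psmd6. In early SC it was -13.0 for Psme3, so there the TDP-43 cKO mice were the lower ones.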

How the results depend on the processing

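Over 191 pairs of a named gene and a comparison, 2443 alternative values were computed, of which 2181 kept the sign and the side of the threshold, 61 lost the call and 44 gained one. The sign turned in 157, of which 148 were called neither as reported nor under the alternative and 9 were called in at least 1 of them. Those 9 turned from D to RS for Psmb6 (0.37 with DESeq2 size factors and 0.37 with DESeq2), Psmb7 (0.38 and 0.38), Psme4 (0.34 and 0.34) and Psma7 (0.27 with DESeq2), from P to D for Psmb5 (0.17 with DESeq2), and from early SC to P for Psmb10 (-0.44 with library size alone), and the cause was not tested. Members called with the stricter call were 7, 13, 7 and 13 in the 4 steps from SG to RS, 12 in somatic against germ cells and 3 in immune against other somatic cells. At the ordinary call, an adjusted p under 0.05, immune against other somatic cells gave 7. At that call library size alone gave 16, where 11.2% of all genes were higher and 13.8% lower. Resolution 1.2 gave 13 and sums of at least 30 cells 13, without the shares of all genes beside them here. At resolution 1.2 no cluster was named P, so its steps could not be fitted. A cluster of 560 cells with leading genes of the P cluster at 0.8 was named Z there, so early SC were not the same cells. DESeq2 called 1 member in NELF-B cKO and 13 in TDP-43 cKO SG and early SC together, 1 and 10 in SG, 5 in TDP-43 cKO early SC, and 1 and 8 in Sertoli cells. Resolution 1.2 called 1 and 15 in SG and early SC together, 1 and 6 in early SC and 0 in TDP-43 cKO Sertoli cells. Beside the 15, 6.93% of all genes were higher and 16.1% lower. In TDP-43 cKO early SC the stricter call and the replicate block gave 0, no filter gave 2, keeping all cells gave 2, pL or L cells alone gave 0 and Z cells alone 5 by edgeR, and in NELF-B cKO mice Z cells alone gave 1. Shares of all genes are not given for the remaining counts at resolution 1.2, with no filter or with all cells kept. Those counts have no background to be read against. In TDP-43 cKO Sertoli cells the stricter call and the replicate block gave 0.

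Without 1 mouse, members called ranged over 28 to 30, 28 to 32, 25 to 26 and 28 to 33 in the 4 steps, 34 to 38 in somatic and 5 to 9 in immune cells, against 36 and 7 with all mice. They ranged over 0 to 1 in NELF-B cKO SG with and without early SC, 0 to 0 in the same TDP-43 cKO sums, 0 to 0 and 0 to 1 in NELF-B and TDP-43 cKO early SC, and 0 to 2 and 0 to 0 in Sertoli cells. The Psma8 share in early SC differed in NELF-B cKO by -16.5 points with all cells kept, -26.3 at resolution 1.2, -20.3 as a mean over cells and -19.8 to -14.2 without 1 mouse. In TDP-43 cKO it differed by 0.917, -33.4 (p = 0.05714, exact permutation test), -10.4 and -11.3 to 0.549, the last without TDP-43 cKO 1.

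Replicate numbers are shared by different animals. Deviations of mice with the same number correlated at 0.384 and 0.35 between control and NELF-B cKO and at -0.203, -0.115 and 0.0187 between control and TDP-43 cKO. With 2 NELF-B cKO mice the deviations mirror each other, as in 0.384 and -0.384 for control 1. These values thus cannot tell whether the numbers pair the samples. The replicate block lost the call of Psmd10 in TDP-43 cKO early SC (edgeR, adjusted p = 0.1225) and both calls in Sertoli cells. Few UMIs limit Psmb8, Psmb9 and Psmb11 in germ cells and Psmd10 in P, and few mice limit both genotypes.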
